A study of Mus musculus with 9 samples.

Results

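The genes described here are 8 members of the suppressor of cytokine signalling (SOCS) family and of the STAT3 axis in mouse peritoneal macrophages: the inhibitors Socs1, Socs2, Socs3, Socs6 and Cish, the transcription factor Stat3, and Pim1 and Bcl3, a kinase and a nuclear IkB-family protein that STAT3 can induce. They were found by name, as every probe whose gene name on the array was 1 of these 8 symbols. This gave 15 probes of 55681 on the array, at least 1 for each of the 8 genes, and 13 of the 15 passed the filter on dim probes. All 8 genes were therefore among the 18539 genes tested.

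Cytokine receptors that lack a kinase of their own signal through JAK kinases, which phosphorylate STAT proteins, and the STATs then enter the nucleus and switch on target genes. The SOCS genes are among those targets, and their proteins bind the receptors or the kinases and mark them for ubiquitination, so that a rise in a SOCS transcript is a classical sign of feedback. In macrophages SOCS3 restrains signalling from the interleukin 6 receptor chain gp130 but not from the interleukin 10 receptor, SOCS1 restrains interferon signalling, and CISH and SOCS2 are best known as targets of STAT5.

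The 3 groups held 3 arrays each, hybridised with total RNA from peritoneal macrophages of male mice that were sorted by flow cytometry as CD45+ and F4/80+. Ctrl macrophages were kept alone in regular medium for 24 h. T macrophages shared the lower chamber of a Transwell, a dish divided by a porous insert, with CT-26 (a colon carcinoma line of the mouse) for 24 h. M macrophages were in co-culture with CT-26 cells too, were taken as the cells that migrated, and came from the upper chamber; the sources used here do not give the length of that culture. They do not give strain or age either, nor whether arrays of the same group had separate animals or cultures behind them, so the p-values measure only how far these samples differ, which can be technical. The cell type label of the T samples calls them migratory, against their titles and the protocol; groups here follow the titles.

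Each value is a level on the log2 scale relative to the 75th percentile of its own array, so that 0 is the 75th percentile and 1 unit is a doubling, and levels of different probes cannot be set against each other. Between 60.5% and 78.7% of probes were well above background on an array, with the lowest shares on the M arrays. The 3 Ctrl and 3 M arrays shared a slide and a scan and the 3 T arrays had another slide and scan, so that T and its slide cannot be told apart, in T against Ctrl and in M against T alike, whereas M against Ctrl lies within 1 slide. Ctrl array 3 stood apart from its group: over the arrays' levels it correlated at 0.975 and 0.980 with Ctrl arrays 1 and 2 and at 0.980 to 0.984 with the M arrays. The 10 macrophage markers examined, Ptprc and Adgre1 of the sorting gate among them, were above background on all 9 arrays. Their levels were not alike: 3 of the 10 were called higher in T and 4 in M, against Ctrl, and 0 lower. Of all genes, 17.5% and 12.2% were higher. In M against Ctrl, Adgre1 was 7.26-fold higher (limma adjusted p = 1.36e-05) and Ptprc 1.74-fold (0.0222). Mertk was 6.70-fold higher in T than in Ctrl (9.19e-06). The part of these differences in the members' results was not tested. In RNA from bulk cells, a change in the share of cells that hold a transcript and a change in its amount per cell cannot be told apart.

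The promoter windows of 4 members are printed because they differ in the STAT, IRF and NF-kB letters they hold, while their genes follow different patterns over the 3 groups. RefSeq windows on GRCm38.p6 were matched by symbol for 6 of the 8 members, in 7 windows of 300 bases that run from 250 bases before the gene start. Printed here are the first 270 bases of each, on the gene's strand, with matches in capitals.
Cish, chr9:107296409-107296678, plus strand: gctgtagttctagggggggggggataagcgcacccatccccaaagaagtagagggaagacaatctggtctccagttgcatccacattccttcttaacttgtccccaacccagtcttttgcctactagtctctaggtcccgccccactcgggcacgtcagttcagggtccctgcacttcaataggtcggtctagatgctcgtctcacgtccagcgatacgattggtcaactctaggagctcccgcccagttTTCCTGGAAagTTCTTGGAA
Socs3, chr11:117969347-117969616, minus strand: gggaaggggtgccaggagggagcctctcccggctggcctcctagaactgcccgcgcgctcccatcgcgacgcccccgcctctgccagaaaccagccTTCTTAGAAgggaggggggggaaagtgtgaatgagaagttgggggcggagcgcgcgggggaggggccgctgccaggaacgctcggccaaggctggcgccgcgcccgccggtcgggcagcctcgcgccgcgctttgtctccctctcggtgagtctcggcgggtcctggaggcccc
Socs1, chr16:10785517-10785786, minus strand: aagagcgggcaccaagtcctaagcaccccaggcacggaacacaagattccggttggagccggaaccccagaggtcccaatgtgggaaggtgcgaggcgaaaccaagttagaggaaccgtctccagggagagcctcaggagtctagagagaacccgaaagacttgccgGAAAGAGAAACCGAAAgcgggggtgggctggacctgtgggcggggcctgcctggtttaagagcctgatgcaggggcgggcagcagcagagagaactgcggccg
Bcl3, chr7:19822736-19823005, minus strand: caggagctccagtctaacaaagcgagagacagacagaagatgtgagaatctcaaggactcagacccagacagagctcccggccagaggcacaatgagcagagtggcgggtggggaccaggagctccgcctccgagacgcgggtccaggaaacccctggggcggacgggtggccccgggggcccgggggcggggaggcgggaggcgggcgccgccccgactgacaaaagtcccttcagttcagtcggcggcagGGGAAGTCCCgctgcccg

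The capitals in Cish and Socs3 mark TTCNNNGAA, the palindromic GAS element that STAT dimers bind. Cish held 2 matches, the first beginning on the annotated start base itself and the second 11 bases downstream, and Socs3 held 1, which began 154 bases before the start. Of 32817 windows of the same length, 8.29% held this motif and 0.457% held it at least 2 times. The capitals in Socs1 mark 2 copies of GAAA, with any 2 bases between them, as in a pair of IRF half-sites, with 2 matches that overlap each other and begin 83 and 77 bases before the start; 3.43% of windows held it. The capitals in Bcl3 mark the NF-kB consensus, 2 bases past the start, which 8.46% of windows held. No match to any of these 3 motifs, searched on both strands, lay in the windows of Stat3 or Pim1. These are matches of letters and say nothing of binding.

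**Figure D1:**
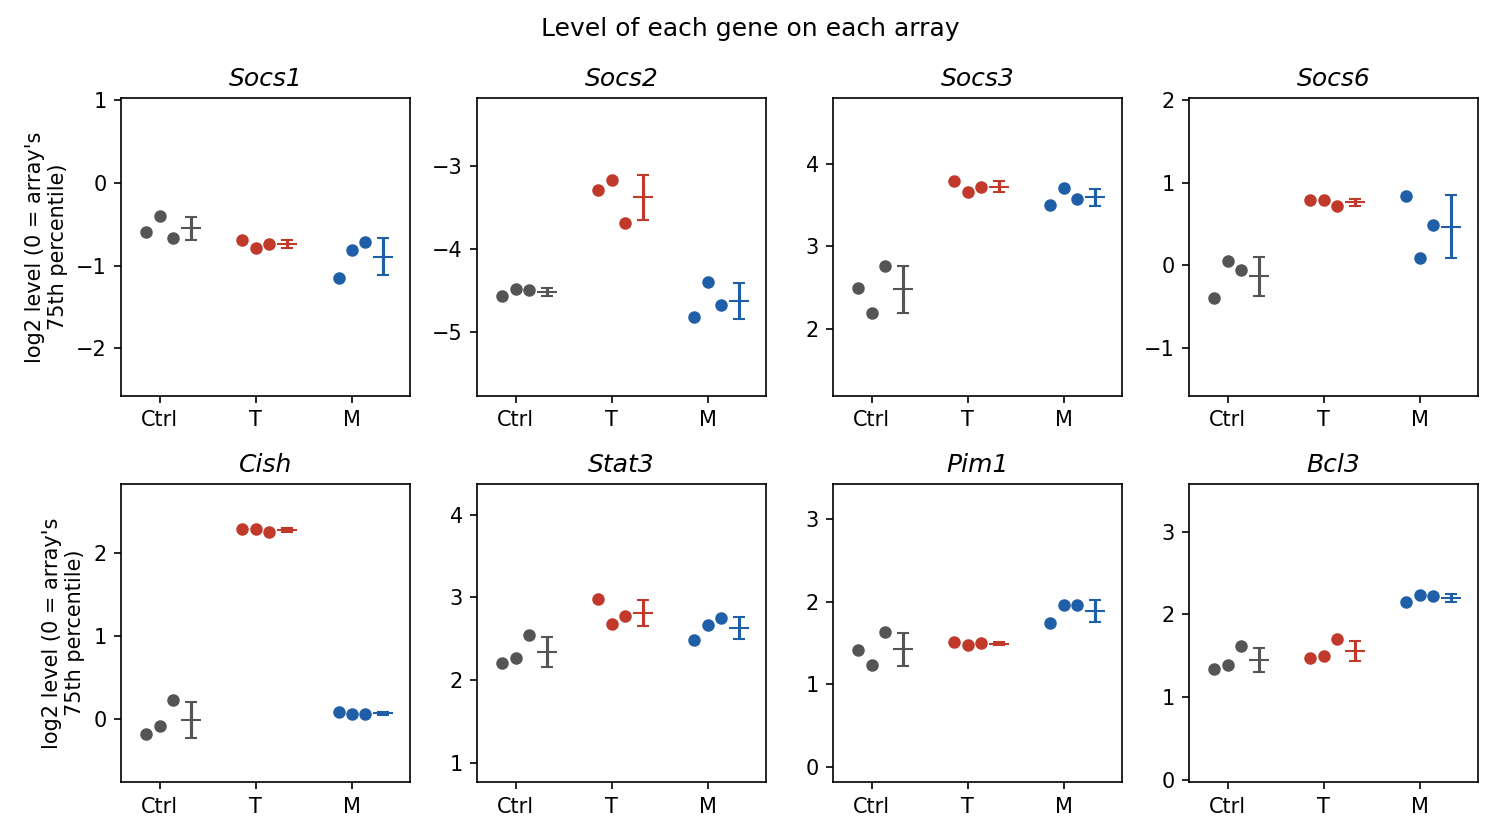
Level of each gene on each of the 9 arrays, on the log2 scale with 0 at the array's 75th percentile (every panel spans the same range of log2 units); dots are arrays and the bars beside them are the group mean and SD (n = 3). Cish and Socs2 are high on the T arrays alone, Socs3 is high on the T and M arrays, and Bcl3 is high on the M arrays.

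Cish had the largest difference among the members, each read on the probe that stands for it. On 2 other probes of Socs2, described below, the rise in T was larger, at least 14.1-fold and at least 11.1-fold. The CISH protein occupies receptor sites that STAT5 would otherwise bind. The Cish probe A_51_P470715 (mm9, chr9:107204196-107204255) stood at -0.19, -0.09 and 0.23 on Ctrl arrays 1, 2 and 3, at 2.29, 2.30 and 2.25 on the T arrays, and at 0.08, 0.05 and 0.05 on the M arrays. All 3 T arrays lay above every other array, and the M arrays lay inside the range of the Ctrl arrays. In signal units before scaling, this was 1928 to 3142 on the Ctrl arrays, 10472 to 17876 on the T arrays and 2561 to 3936 on the M arrays.

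Cish rose 4.91-fold in T against Ctrl, a difference of 2.30 ± 0.16 on the log2 scale (moderated SE, n = 3 against 3; limma, adjusted p = 8.47e-06). It was 4.65-fold lower in M than in T, a log2 difference of -2.22 ± 0.16 (adjusted p = 1.04e-05). By size these ranked 564 and 441 of the 18539 genes tested. In M against Ctrl the log2 difference was 0.08 ± 0.16 with a 95% interval from -0.28 to 0.44 (adjusted p = 0.732), so that a change of the size seen in T lies outside what the M arrays allow. Both calls held under every alternative computed, with log2 differences from 2.05 to 2.72 in T against Ctrl and from -2.34 to -2.14 in M against T.

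Socs2, a SOCS protein known for restraining growth hormone receptor signalling, shared the T arrays' rise. It has 4 probes, and the brightest, A_51_P107362, stands for the gene because it had the highest mean level. A second one is printed because it lies upstream of it in the transcript and was not well above background on any Ctrl or M array, which leaves only a bound on the fold. Its 60 bases can be read without a stop in 1 frame.
Socs2 probe A_55_P1992838, mm9, chr10:94875468-94875527, minus strand: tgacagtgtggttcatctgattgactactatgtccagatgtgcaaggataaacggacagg

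On A_51_P107362 (mm9, chr10:94875066-94875125) the Socs2 level was -4.57, -4.49 and -4.49 on the Ctrl arrays, -3.28, -3.16 and -3.69 on the T arrays, and -4.82, -4.40 and -4.68 on the M arrays. The T arrays lay above all others and the Ctrl and M arrays overlapped. Socs2 rose 2.20-fold in T against Ctrl (log2 difference 1.14 ± 0.19, limma adjusted p = 0.00149) and was 2.39-fold lower in M than in T (-1.26 ± 0.19, adjusted p = 0.00111). The difference of M from Ctrl was -0.12 ± 0.19, with a 95% interval from -0.54 to 0.31 (adjusted p = 0.666).

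The other Socs2 probes gave wider gaps in T. On the printed probe A_55_P1992838 the levels were -6.90, -8.32 and -6.61 in Ctrl, -3.35, -2.92 and -2.80 in T and -6.17, -6.34 and -6.54 in M. Taken against the lowest level well above background on each array, or the dim probe's own level where that was higher, this was at least 11.1-fold higher in T than in Ctrl (adjusted p = 5.59e-05 over all probes) and at least 5.88-fold lower in M than in T (adjusted p = 0.000256). On A_55_P1992834 (mm9, chr10:94875187-94875246) the signal before scaling was 20.4, 22 and 32 on the Ctrl arrays, 357, 586 and 478 on the T arrays, and 105, 84.4 and 114 on the M arrays. The Ctrl arrays were not well above background there, and the level was at least 14.1-fold higher in T than in Ctrl (adjusted p = 2.26e-06) and at least 2.98-fold higher in M than in Ctrl (adjusted p = 0.000324).

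The Socs2 probes thus disagreed on M: of the 3 that passed the filter, A_55_P1992834 put M above Ctrl, A_51_P107362 did not pass the test, and A_55_P1992838 gave a log2 difference of 0.93 ± 0.39 with both groups below background (adjusted p = 0.104). With the mean of the gene's probes in place of the brightest, Socs2 differed by 0.87 in M against Ctrl (adjusted p = 0.0155), the opposite sign to the value on the brightest probe, whose sign turned as well with quantile normalization (0.24) and with median scaling (0.18). The fourth probe, A_55_P2072586, stayed below that limit on all 9 arrays and was not tested. All 3 probes that passed the filter had T above Ctrl and above M. A_55_P1992838 passed it through the T arrays alone, so its rise in T is partly built into that choice and is no separate support.

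**Figure D2:**
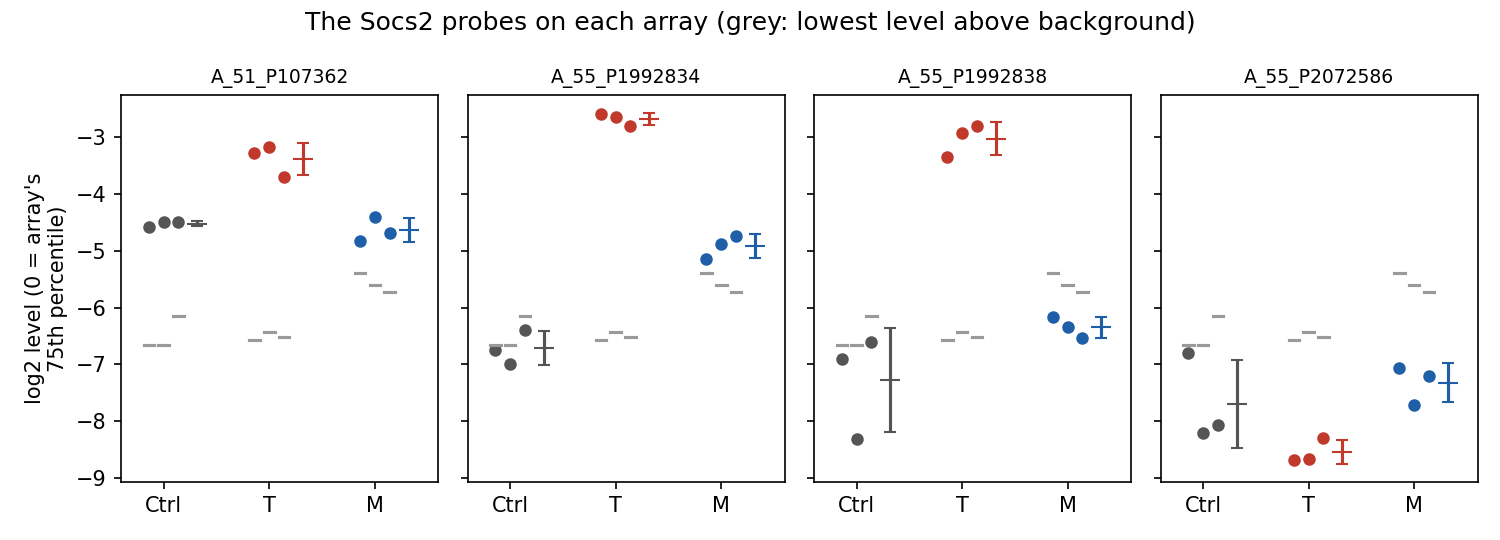
The 4 Socs2 probes on each array, in log2 units with 0 at the array's 75th percentile; dots are arrays, bars are the group mean and SD (n = 3), and grey ticks are the lowest level that counted as well above background on that array. The T arrays stand above the others on the first 3 probes, the Ctrl arrays sit at or below the grey ticks on the next 2, and all 9 arrays lie below them on the fourth.

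Socs3, the feedback inhibitor induced by STAT3 itself, rose in both co-culture groups. The Socs3 probe A_51_P474459 (mm9, chr11:117827480-117827539) stood at 2.49, 2.20 and 2.76 on the Ctrl arrays, at 3.79, 3.65 and 3.72 on the T arrays and at 3.50, 3.71 and 3.58 on the M arrays. Every T and every M array lay above every Ctrl array, and the T and M arrays overlapped. The spread was wider among the Ctrl arrays (SD 0.28) than among the T arrays (0.07) or the M arrays (0.11).

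Socs3 rose 2.36-fold in T (log2 difference 1.24 ± 0.18, limma adjusted p = 0.00071) and 2.16-fold in M (1.11 ± 0.18, adjusted p = 0.00223), both against Ctrl. The M difference was measured within 1 slide. Between M and T the difference was -0.13 ± 0.18, with a 95% interval from -0.53 to 0.27 (adjusted p = 0.652), which leaves room for a moderate difference either way. Both calls against Ctrl held under every alternative computed, the largest adjusted p being 0.0152 for T and 0.0496 for M.

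Socs6, a member known for binding the KIT receptor and components of insulin signalling, was higher in T on its brightest probe, A_55_P1969251 (mm9, chr18:89038580-89038639). The Socs6 levels there were -0.40, 0.05 and -0.06 on the Ctrl arrays, 0.78, 0.78 and 0.71 on the T arrays, and 0.84, 0.08 and 0.48 on the M arrays. The T arrays lay close together above all Ctrl arrays, while the M arrays spread from just above the highest Ctrl array to above the highest T array (SD 0.38). Socs6 rose 1.86-fold in T against Ctrl (log2 difference 0.90 ± 0.22, adjusted p = 0.00825). In M against Ctrl the difference was 0.60 ± 0.22 and did not pass (adjusted p = 0.0647), and in M against T it was -0.29 ± 0.22 (adjusted p = 0.358). The difference of M from Ctrl passed under 4 of 25 alternatives: without M replicate 2 (adjusted p = 0.0271), with median scaling (0.0363), with array weights (0.00874) and with trend and robust eBayes (0.0498).

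The other Socs6 probes were dim and gave other values. A_55_P2150652 (mm9, chr18:89023165-89023224), designed on the cDNA clone AK031929, was above background on the 3 Ctrl arrays and on no T or M array. It was at least 2.80-fold lower in T (adjusted p = 0.0037 over all probes) and at least 1.48-fold lower in M (adjusted p = 0.0401), both against Ctrl. This probe passed the filter through the Ctrl arrays alone, so a fall from Ctrl is partly built into that choice. A_52_P135421 gave 0.99 ± 0.49 for T against Ctrl (adjusted p = 0.124), and A_55_P2034903 was above background on no array. The mean of its probes, which takes in levels below background, differed by -0.03 in T against Ctrl (adjusted p = 0.922). Of the 3 probes that passed the filter, only the brightest was called higher in T.

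Socs1, the inhibitor of JAK kinases induced by interferons, passed no test. The Socs1 probe A_51_P279606 (mm9, chr16:10783951-10784010) stood at -0.59, -0.40 and -0.66 on the Ctrl arrays, at -0.69, -0.79 and -0.74 on the T arrays and at -1.15, -0.81 and -0.72 on the M arrays. The T arrays and the M arrays lay below every Ctrl array. Its log2 difference was -0.19 ± 0.17 in T (95% interval -0.57 to 0.19, adjusted p = 0.396) and -0.34 ± 0.17 in M (-0.72 to 0.04, adjusted p = 0.159). The sign in T turned with median scaling (0.24), under which the difference of all genes moved the same way, and with the deposited value table (0.14), under which it did not (median -0.14).

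Stat3, the transcription factor that carries signals from the interleukin 6, interleukin 10 and G-CSF receptors, had the smallest of the differences called in T. On its brighter probe, A_51_P201480 (mm9, chr11:100749598-100749657), Stat3 stood at 2.21, 2.26 and 2.54 on the Ctrl arrays, at 2.98, 2.68 and 2.77 on the T arrays and at 2.48, 2.67 and 2.74 on the M arrays. The T arrays lay above the Ctrl arrays, and the M arrays overlapped with both. The T difference was 1.39-fold, 0.47 ± 0.17 on the log2 scale, and passed narrowly (adjusted p = 0.0467). That call was lost under 18 of 25 alternatives, up to an adjusted p of 0.392, among them the fit with the replicate number as a block (0.0794, and 0.0687 with T and Ctrl alone) and the fit of every probe (0.0516). The second Stat3 probe, A_55_P1991219 (mm9, chr11:100759946-100760005), differed by 0.28 ± 0.20 (adjusted p = 0.256). In M against Ctrl the difference on the brighter probe was 0.29 ± 0.17 (adjusted p = 0.223). These are transcript levels; the phosphorylated form of STAT3, which is what activates it, was not measured.

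Bcl3, an IkB-family protein that acts in the nucleus with NF-kB p50 and p52, rose in M and did not pass the test in T. The Bcl3 probe A_55_P2066116 (mm9, chr7:20393826-20393885) stood at 1.34, 1.39 and 1.62 on the Ctrl arrays, at 1.475, 1.504 and 1.700 on the T arrays and at 2.15, 2.23 and 2.23 on the M arrays. The 3 M arrays lay above all others, and the Ctrl and T arrays overlapped. Bcl3 was 1.69-fold higher in M than in Ctrl (log2 difference 0.75 ± 0.16, adjusted p = 0.00927) and 1.56-fold higher in M than in T (0.64 ± 0.16, adjusted p = 0.0146), the second being the direct test of the gap between the co-culture groups. In T against Ctrl the difference was 0.11 ± 0.16, with a 95% interval from -0.24 to 0.46 (adjusted p = 0.592). The call against T was lost without T replicate 2 (adjusted p = 0.0656) and with median scaling (0.143).

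Pim1, a serine/threonine kinase that supports survival and growth downstream of STAT3 and STAT5, passed no test. The Pim1 probe A_52_P530291 (mm9, chr17:29630740-29630799) stood at 1.42, 1.23 and 1.63 on the Ctrl arrays, at 1.509, 1.473 and 1.495 on the T arrays and at 1.74, 1.96 and 1.96 on the M arrays. As with Bcl3, the 3 M arrays lay above all others. The difference of M from Ctrl was 0.46 ± 0.17 (adjusted p = 0.0661), that of M from T 0.39 ± 0.17 (adjusted p = 0.107) and that of T from Ctrl 0.07 ± 0.17 (adjusted p = 0.768). The difference of M from Ctrl passed under 6 of 25 alternatives, among them quantile normalization (adjusted p = 0.0323) and the fit without Ctrl replicate 3 (0.0153), and that of M from T under 3 of 24. The adjusted p ran from 0.000283 to 0.523 and from 0.0127 to 0.821 over these alternatives.

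**Figure D3:**
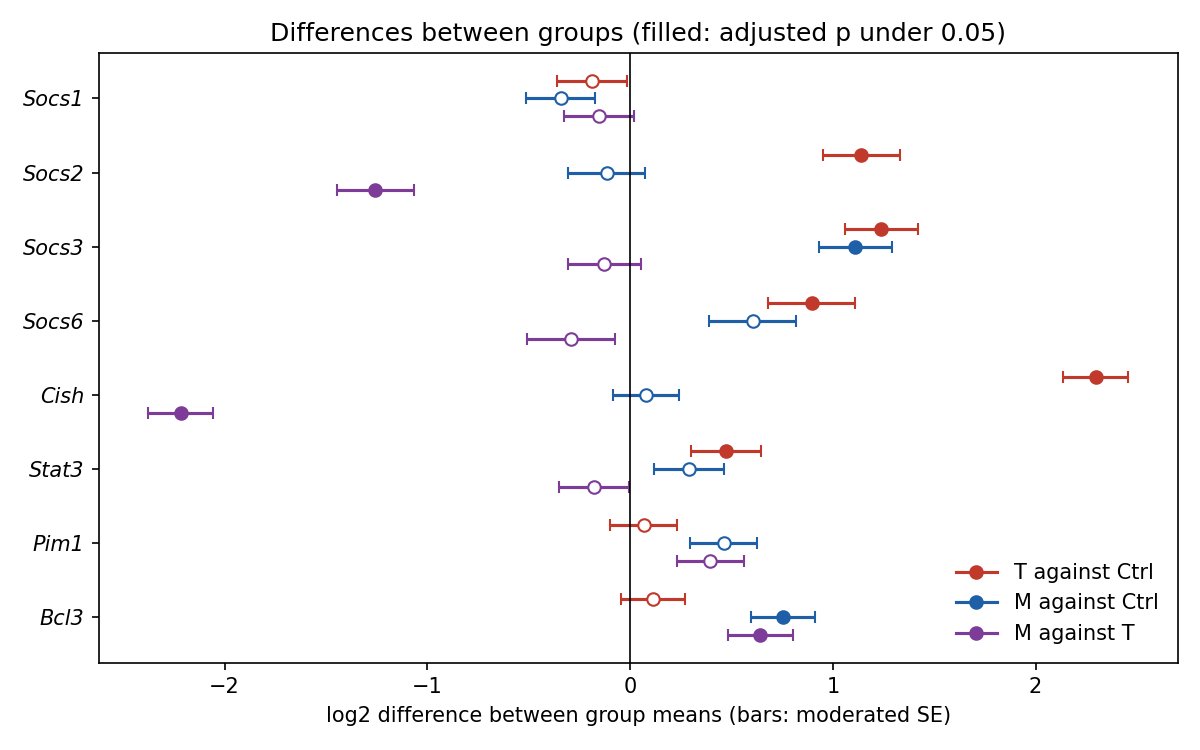
Differences between group means for each gene, in log2 units, with the moderated SE as the bar; filled circles have an adjusted p under 0.05. Cish and Socs2 pair a positive difference in T against Ctrl with a negative one in M against T, while Bcl3 is positive in both comparisons that involve M.

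Counted over the set, 5 of the 8 genes were higher and 0 lower in T against Ctrl, namely Cish, Socs3, Socs2, Socs6 and Stat3. Of all 18539 genes, 45% were called in that comparison, 17.5% as higher and 27.4% as lower. In M against Ctrl, Socs3 and Bcl3 were higher and 0 were lower, where 23.3% of all genes were called and 12.2% were higher and 11.1% lower. In M against T, Bcl3 was higher and Cish and Socs2 were lower, where 25.5% of all genes were called, 14.6% as higher and 10.8% as lower. The share of members called was near that of all genes in M against Ctrl, and so many genes were called in T against Ctrl that the count there says little about the set.

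The members' median log2 difference was 0.68 in T against Ctrl, 0.38 in M against Ctrl and -0.17 in M against T, and that of all genes was -0.14, -0.09 and 0.11. The median of all genes depends on the scaling: for T against Ctrl it was 0.00 with quantile normalization and 0.28 with median scaling, and for M against Ctrl 0.04 and 0.21. Taken relative to the median of all genes, the T difference was 2.44 for Cish with the 75th percentile and 2.31 with quantile normalization, 1.38 and 1.30 for Socs3, and 0.61 and 0.49 for Stat3. The same measure for Bcl3 in M against Ctrl was 0.85 and 0.69. Socs1 in T came to -0.05 and -0.15, close to the middle of all genes.

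The arrays of both groups did not overlap for 6 of the 8 genes in T against Ctrl, where this held for 53.6% of all genes. It held for 5 in M against Ctrl (36.2% of all genes) and for 4 in M against T (48.3%). The differences T against Ctrl and M against Ctrl share the Ctrl arrays, so their values are given side by side and no relation between them is drawn.

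Other genes of the pathway were counted from 8 lists of 87 genes, of which 81 could be tested. In T against Ctrl 31 were higher and 8 lower, in M against Ctrl 24 and 2, and in M against T 13 and 14. That is 48.1%, 32.1% and 33.3% of the tested genes, where 45%, 23.3% and 25.5% of all genes were called. The share in T was therefore near that of all genes. The lists' median log2 differences were 0.37, 0.23 and -0.002, beside -0.14, -0.09 and 0.11 for all genes.

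**Figure D4:**
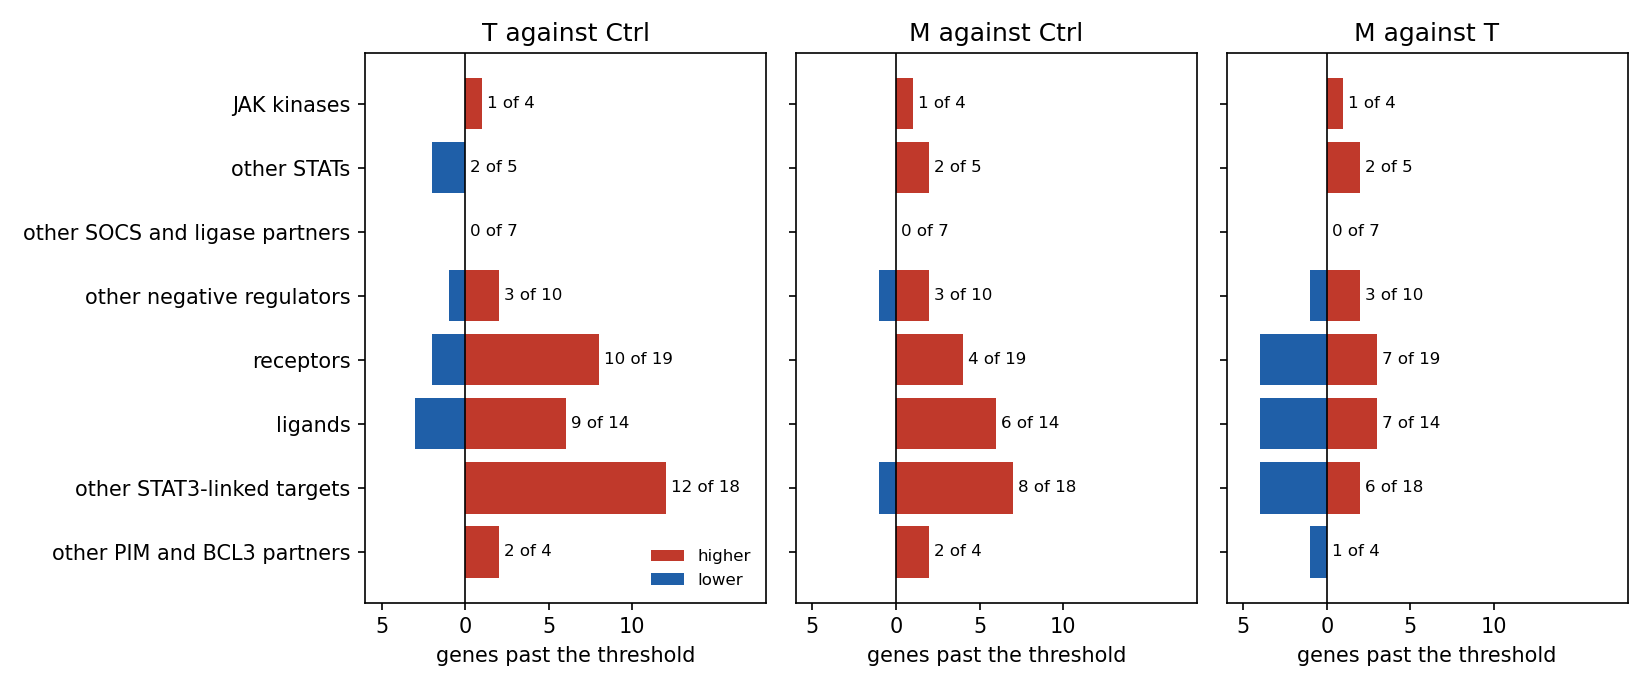
Number of genes of each pathway list past an adjusted p of 0.05 in each of the 3 comparisons, higher to the right and lower to the left of 0, with the count called and the count tested beside each bar. The other STAT3-linked targets hold the longest bar, 12 higher of 18 in T against Ctrl, and the other SOCS genes and their ligase partners hold none. The lists were chosen with earlier results of these data known.

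Of the ligands, 6 of 14 tested were higher and 3 lower in T, and 6 were higher and 0 lower in M, against Ctrl. For comparison, the share of genes called higher over the whole array was 17.5% in T and 12.2% in M, and that called lower 27.4% and 11.1%. Csf3, which encodes G-CSF, a cytokine that signals through STAT3 and induces SOCS3, stood at -3.70, -3.69 and -3.25 on the Ctrl arrays, at 2.34, 2.44 and 2.39 on the T arrays and at 0.42, 0.27 and 0.24 on the M arrays. The 3 groups were fully apart: Csf3 rose by 5.93 ± 0.17 on the log2 scale in T (adjusted p = 1.83e-07) and by 3.86 ± 0.17 in M (adjusted p = 3.54e-07), and was lower in M than in T by -2.08 ± 0.17 (adjusted p = 2.37e-05).

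Among the ligands of gp130, the shared receptor chain of the interleukin 6 family, Osm rose by 1.62 ± 0.17 in T (adjusted p = 0.000107) and by 1.23 ± 0.17 in M (adjusted p = 0.000833). Lif stood at -2.86, -3.73 and -4.30 on the Ctrl arrays, at -1.84, -1.85 and -1.83 on the T arrays and at -3.18, -3.30 and -2.74 on the M arrays. Lif rose in T (1.79 ± 0.32, adjusted p = 0.0021) and was lower in M than in T (-1.23 ± 0.32, adjusted p = 0.0184), with T alone above the rest. Il6 was well above background on the 3 T arrays and on no Ctrl or M array, and was at least 2.27-fold higher in T than in Ctrl (adjusted p = 0.003). Il6 passed the filter through the T arrays alone, so that rise is partly built into the choice. Its call in M against Ctrl compares levels that were both below background. Il11 was lower in M than in T (-1.35 ± 0.33, adjusted p = 0.0135), and Clcf1, added after its values were seen, fell by 0.77 in T (SE 0.23, adjusted p = 0.0199). Il10, the anti-inflammatory cytokine that signals through STAT3 in macrophages, rose by 1.56 ± 0.27 in T (adjusted p = 0.00186) and by 1.33 ± 0.27 in M (adjusted p = 0.00806). Il4, an activator of STAT6, stood at 2.153, 1.498 and -0.871 on the Ctrl arrays and at -2.05, -2.59 and -2.11 on the T arrays, and fell by 3.18 on the log2 scale in T (SE 0.61, adjusted p = 0.00289) with a wide spread in Ctrl.

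Of the receptors, 8 of 19 tested were higher and 2 lower in T, and 4 were higher and 0 lower in M, against shares of 45% and 23.3% called in either direction among all genes. Ghr, the growth hormone receptor that SOCS2 restrains, stood at -3.72, -3.62 and -3.85 on the Ctrl arrays, at -3.08, -2.93 and -3.03 on the T arrays and at -0.98, -0.65 and -0.90 on the M arrays, with every M array above every T array and these above Ctrl. Ghr rose by 2.88 ± 0.16 in M (adjusted p = 1.22e-06) and by 0.71 ± 0.16 in T (adjusted p = 0.00636). Csf2rb2, a beta chain of the mouse interleukin 3 receptor, rose by 3.63 ± 0.22 in M (adjusted p = 2.31e-06) and by 1.72 ± 0.22 in T (adjusted p = 0.000368), and Il11ra1 by 1.75 ± 0.21 in M (adjusted p = 0.000276). Il4ra was called higher in T (1.36 ± 0.49, adjusted p = 0.0452) although its arrays overlapped, with Ctrl levels from -3.60 to -1.35. Il10ra, the ligand-binding chain for interleukin 10, rose by 1.23 ± 0.19 in T (adjusted p = 0.000938). Lifr fell by 2.17 on the log2 scale in T (SE 0.61, adjusted p = 0.017), with Ctrl levels spread from -3.84 to -0.97. Csf3r, the G-CSF receptor, and Il6st, which encodes gp130, were singled out after their values were seen: Csf3r differed by -0.01 ± 0.24 in T (adjusted p = 0.986) and by 0.03 ± 0.24 in M (adjusted p = 0.923), and Il6st rose by 0.60 ± 0.18 in T (adjusted p = 0.0212).

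Among kinases and STATs, Jak2 was the 1 of 4 JAK kinases to pass the test, rising by 0.56 ± 0.19 in T (adjusted p = 0.0341) and by 1.36 ± 0.19 in M (adjusted p = 0.00076). Of 5 other STATs tested, 0 were higher and 2 lower in T, and 2 were higher and 0 lower in M. Of all genes, 45% were called in T against Ctrl and 23.3% in M against Ctrl, so these counts say little about either list. Jak1 differed by as much in T, 0.57 ± 0.27, with no overlap of its arrays, and did not pass (adjusted p = 0.104). Stat5a, which with Stat5b encodes the factors through which Cish and Socs2 are classically induced, stood at 0.33, 0.35 and 0.64 on the Ctrl arrays, at -0.53, -0.54 and -0.46 on the T arrays and at 0.12, 0.15 and 0.29 on the M arrays. Stat5a fell by 0.95 on the log2 scale in T (SE 0.16, adjusted p = 0.00149), in the arrays where Cish and Socs2 were highest, while Stat5b differed there by 0.30 ± 0.17 (adjusted p = 0.175). These are transcript levels, STAT5 protein and its activity were not measured, and a link to Cish or Socs2 was not tested. Stat4 fell by 1.38 in T (SE 0.24, adjusted p = 0.00192). In M, Stat2 rose by 1.01 ± 0.20 (adjusted p = 0.00761) and Stat5b by 0.57 ± 0.17 (adjusted p = 0.0387).

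**Figure D5:**
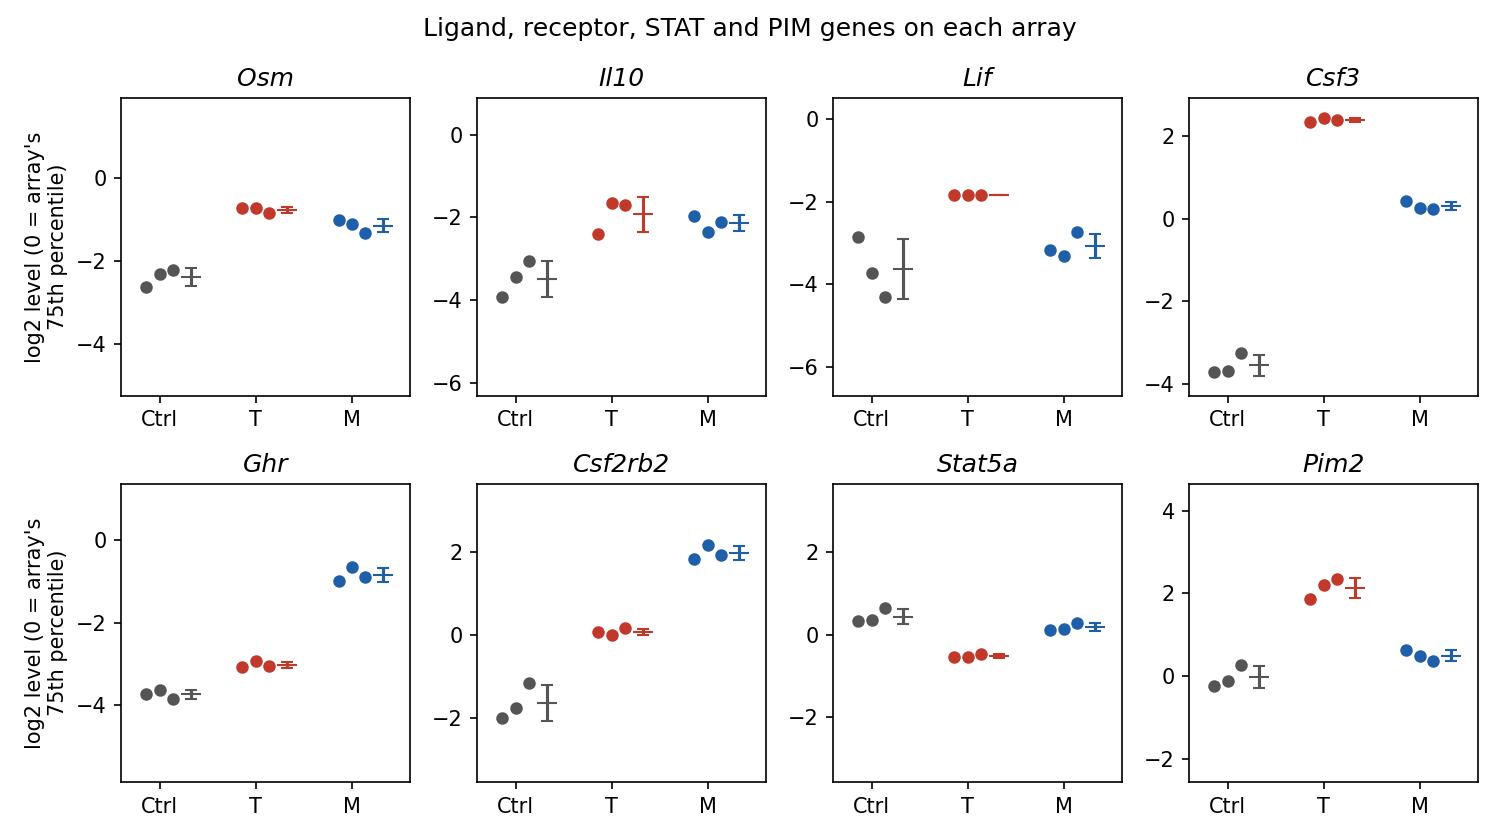
Levels of 4 ligands (Osm, Il10, Lif, Csf3), 2 receptor genes (Ghr, Csf2rb2), Stat5a and Pim2 on each of the 9 arrays, in log2 units with 0 at the array's 75th percentile; dots are arrays and bars the group mean and SD (n = 3), and the panels of a row do not share a level scale. Csf3, Lif and Pim2 are highest in T, Ghr and Csf2rb2 are highest in M, and Stat5a is lowest in T.

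None of the 7 other SOCS genes and ligase partners tested (Socs4, Socs5, Socs7, Eloc, Elob, Cul5 and Rnf7) passed in any comparison with limma; at an unadjusted p under 0.05 there were 0 in T against Ctrl, 1 in M against Ctrl (Rnf7, -0.47, unadjusted p = 0.0239) and 1 in M against T (Socs7, -0.43, unadjusted p = 0.026), named after their values were seen. Of 10 other negative regulators, 2 were higher and 1 lower in T and again 2 and 1 in M, against Ctrl. For scale, 45% of the genes tested passed in T and 23.3% passed in M, in either direction. Such counts do not set this list apart from the rest of the array. Ptpn1, a phosphatase that acts on JAK2 and TYK2, rose by 0.76 ± 0.17 in T (adjusted p = 0.00583) and by 0.76 ± 0.17 in M (adjusted p = 0.0128). Cblb, a ubiquitin ligase, rose by 1.15 ± 0.25 in T (adjusted p = 0.00496), and Pias2 fell by 0.72 (SE 0.15, adjusted p = 0.00452). In M, Pias1 fell by 0.56 (SE 0.15, adjusted p = 0.0258) and Pias3 rose by 0.51 ± 0.16 (adjusted p = 0.045); the PIAS proteins are SUMO ligases that restrain STATs.

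Of 18 other STAT3-linked targets, 12 were higher and 0 lower in T, and 7 were higher and 1 lower in M, with median log2 differences of 0.92 and 0.53. Of all genes, 17.5% were higher in T and 12.2% in M, with medians of -0.14 and -0.09. Myc stood at -3.41, -3.33 and -2.73 on the Ctrl arrays, at 0.27, 0.46 and 0.55 on the T arrays and at 0.96, 1.27 and 0.94 on the M arrays, and rose by 3.58 ± 0.21 in T (adjusted p = 2.83e-06) and 4.21 ± 0.21 in M (adjusted p = 6.17e-07). Lcn2, an iron-scavenging acute-phase protein, rose by 2.95 ± 0.15 in T (adjusted p = 1.09e-06) and 3.41 ± 0.15 in M (adjusted p = 2.9e-07). Saa3, an acute-phase serum amyloid, rose by 2.60 ± 0.28 in T (adjusted p = 0.000115) and 2.05 ± 0.28 in M (adjusted p = 0.000706). Il1rn, the interleukin 1 receptor antagonist, rose by 1.88 ± 0.21 in T (adjusted p = 0.000162) and 2.93 ± 0.21 in M (adjusted p = 7.85e-06). Bcl2l1, which encodes the survival protein BCL-XL, went the other way in M, from 4.51, 4.45 and 4.64 on the Ctrl arrays to 3.00, 3.25 and 3.15 on the M arrays, and fell by 1.40 on the log2 scale (SE 0.18, adjusted p = 0.000398). Many of these genes also respond to NF-kB and other factors, so the list is not specific to STAT3. It was chosen with earlier results of these data known, so its counts beside those of all genes are no test of the list.

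Among relatives of Pim1, Pim2 stood at -0.23, -0.13 and 0.28 on the Ctrl arrays, at 1.86, 2.20 and 2.34 on the T arrays and at 0.63, 0.48 and 0.36 on the M arrays. Pim2 rose by 2.16 ± 0.20 in T (adjusted p = 4.34e-05) and was lower in M than in T by -1.65 ± 0.20 (adjusted p = 0.000258), with T apart from both other groups as for Cish. Unlike Cish, every M array also lay above every Ctrl array, by a difference of 0.52 ± 0.20 that did not pass (adjusted p = 0.0824). Pim3 rose by 0.86 ± 0.27 in T (adjusted p = 0.0261) and by 0.99 ± 0.27 in M (adjusted p = 0.0288). Nfkb1, whose product p50 is a partner of BCL3, rose by 0.77 ± 0.21 in M (adjusted p = 0.0269).

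Markers of other cells moved with the groups, and their part in these results was not tested. The summed level of 10 granulocyte markers was 0.527 to 1 times the 75th percentile on the Ctrl arrays, 0.887 to 1.12 on the T arrays and 2.70 to 2.75 on the M arrays, where Bcl3 was highest; 6 to 8 of the 10 were above background, and of the 7 tested only S100a8 (4.97 ± 0.22, adjusted p = 2.9e-07) and S100a9 (1.58 ± 0.28, adjusted p = 0.00355) rose in M. The median difference of those 7 was -0.03 in M and -0.84 in T, where S100a8 rose and Mpo, Elane and Ngp fell. The summed level of 6 mast cell markers was 0.193 to 0.268 on the Ctrl arrays, 0.343 to 0.368 on the T arrays, where Cish and Socs2 were highest, and 0.133 to 0.178 on the M arrays, with 1 to 4 of the 6 above background. Of the 3 tested, only Tpsb2 rose in T (1.54 ± 0.23, adjusted p = 0.000855). Cma1 fell by 1.21 (SE 0.235, adjusted p = 0.00315), and Kit was called lower and was above background on no T array. Kit passed the filter through the Ctrl arrays alone, so its fall is partly built into that choice. The median difference of those 3 was -1.21 in T. The summed level of 13 carcinoma epithelium markers was 2.28 to 4.12 on the Ctrl arrays, 2.47 to 2.86 on the T arrays and 2.06 to 2.75 on the M arrays, with 7 to 13 above background. Of the 10 tested, 3 were higher and 4 lower in T against Ctrl. In M against T, 2 were higher and 2 lower, beside 14.6% and 10.8% of all genes. Krt19 rose by 3.63 ± 0.27 in T (adjusted p = 1.11e-05), Elf3 rose by 1.46 ± 0.18 (0.000256), and both were lower in M than in T. Epcam fell by 1.60 in T (SE 0.29, adjusted p = 0.00221) and was higher in M than in T. Of 9 T and NK cell markers tested, 1 was higher and 4 lower in T against Ctrl. For B cells these were 0 and 3 of 6, for dendritic cells 0 and 2 of 4, and for mesothelium and fibroblasts 0 and 1 of 4. Of all genes, 17.5% were higher and 27.4% lower.

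For each member, the tested genes with the most similar profile over the 9 arrays were found by the root mean square difference of log2 levels after centring each gene on its own mean. Vps8 and Cdc42ep2 lay nearest to Cish, at 0.10 and 0.14, where the median over all genes was 1.17. Pbld2 and Adm lay nearest to Socs2 (0.09 and 0.14, median 0.74), Tmem132a and Hdhd3 to Socs3 (0.11 and 0.11, median 0.69), Fbxo11 and Prdm4 to Socs6 (0.07 and 0.11, median 0.60), and Rrs1 and Parl to Socs1 (0.09 and 0.09, median 0.45). Cdk5rap2 and Mapkbp1 lay nearest to Bcl3 (0.07 and 0.07, median 0.52), Ralgds and Tinf2 to Pim1 (0.05 and 0.05, median 0.45), and Atp6v1g1 and Trip6 to Stat3 (0.05 and 0.06, median 0.45). No member was among the 2 nearest genes of another member.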

How the data were processed

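Arrays were Agilent 1-colour mouse 8x60K designs on mm9. The intensity values were deposited by the authors as scanner output of Feature Extraction 10.7.3.1, background-subtracted and detrended per the file headers; arrays were not normalized to each other. The deposited value table, partly intensity and partly log2 values scaled per array, served as an alternative. From 62976 spots per array, control spots and 147 to 299 outlier spots were left out, and 0 spots were saturated. The signals of a probe's spots were averaged first, and the log2 of that mean was then set to the array's 75th percentile. RefSeq accessions named 26762 probes and the array's own name 6488; 22431 were unnamed, 15137 of which passed the filter. A probe was tested if well above background on all 3 arrays of 1 group or more, and each gene was read from its probe of highest mean level. limma 3.58.1 in R 4.3.3 fitted all 9 arrays (lmFit, eBayes, 10.03 degrees of freedom), with Benjamini-Hochberg adjustment over 18539 genes (threshold 0.05) and 26 alternative settings. On simulated data with 200 changed genes the fit was tested first. The number of arrays limits the precision.

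Members and lists were chosen with earlier results of these data known. All members were named; of each list and comparison, the 4 called genes with the largest differences could be named, and not all of them were. 1 planned list is not reported here. Same-numbered Ctrl and T arrays deviated together (correlations 0.547, 0.12 and 0.376), which met the rule for paired numbers; the values reported have no replicate block, which was run as an alternative. For Ctrl and M these were -0.268, -0.187 and 0.016, and for T and M -0.272, -0.145 and 0.024. These correlations, and the replicate block, used the numbers of the scanner arrays. With M1 and M2 exchanged, as in the deposited value table, they were 0.352, 0.037 and 0.016 for Ctrl and M. For T and M they were then 0.325, 0.059 and 0.024. Whether the numbers pair M with the other groups is therefore not settled, and the replicate block was not run with that exchange.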

Additional observations from a re-analysis of the deposited data

How the results depend on the processing

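The calls of Cish, Socs2 and Socs3 given above for T against Ctrl and of Cish and Socs2 for M against T held under every alternative, as did Socs3 in M against Ctrl. With the mean of a gene's probes the called rise of Socs6 in T against Ctrl turned sign (-0.032), and Socs2 in M against Ctrl passed with the opposite sign (0.87). Differences that passed no test turned sign in other settings too: Socs1 in T against Ctrl (median scaling, deposited table), Socs1 in M against T and Cish in M against Ctrl (normexp), Socs2 in M against Ctrl (quantile, median scaling, without M replicates 1 and 3 together), Socs6 in M against Ctrl (mean of probes), Bcl3 and Pim1 in T and Cish in M against Ctrl without Ctrl replicates 1 and 2 together, Cish in M against Ctrl without Ctrl replicate 1 and Pim1 in T against Ctrl without Ctrl replicate 2. Members called in T against Ctrl numbered 5, and 3 with the mean of probes, 8 with array weights (whose estimate stopped before convergence) and 3 without Ctrl replicates 1 and 2 together, a planned setting that leaves Ctrl replicate 3, which stands apart, as the only control. In M against Ctrl they numbered 2, and 4 with median scaling, 1 with the deposited value table, 6 with array weights, 4 with trend and robust eBayes, 1 without Ctrl replicates 1 and 2 together and 1 without M replicates 1 and 3 together. Leaving out 1 replicate gave 4 to 5 members in T against Ctrl, 2 to 3 in M against Ctrl and 2 to 4 in M against T.

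Genes called in T against Ctrl numbered 8340 (3252 higher, 5088 lower), and 14524 with array weights and 3359 without Ctrl replicates 1 and 2 together; with quantile normalization 4092 were higher and 3710 lower, with median scaling 5199 and 2697. In M against Ctrl they numbered 4318 (2254 higher, 2064 lower), and 2057 with the deposited table, 2207 with only the groups compared or the slide as a block, which are the same fit, 11609 with array weights, 1279 without Ctrl replicates 1 and 2 together and 901 without M replicates 1 and 3 together; the splits were 2843 and 1454 with quantile normalization, 3071 and 1059 with median scaling. In M against T they numbered 4719 (2715 higher, 2004 lower), and 1438 with the deposited table, 2951 with that table without its T2 column (chosen after seeing the data), 7402 with no filter on dim probes, 8907 with array weights and 2410 without M replicates 1 and 3 together; with median scaling 1622 were higher and 1992 lower. Leaving out 1 replicate gave 5600 to 9919, 1879 to 7954 and 2914 to 6225 genes in these 3 comparisons; the 7954 came without Ctrl replicate 3, and 1953, 1956, 2046 and 1879 without Ctrl replicate 1, Ctrl replicate 2, M replicate 1 and M replicate 3, while 2968 and 2914 came without T replicates 2 and 3. The cause of these moves was not tested, beyond the fewer arrays in the fits that leave some out. The replicate block changed no member's call but that of Stat3, and gave 8028, 4552 and 4298 genes. Slide as a block gave no value for T, whose arrays had a slide of their own.

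Bcl3 in M against Ctrl did not pass with the deposited table (adjusted p = 0.104), without Ctrl replicates 1 and 2 together (0.14) or without M replicates 1 and 3 together (0.15). Bcl3 in M against T did not pass with the deposited table (0.641, and 0.064 without its T2 column), without T replicate 2, with median scaling or without M replicates 1 and 3 together (0.116), nor did Socs6 in T against Ctrl without Ctrl replicates 1 and 2 together (0.0837). Socs3 in M against T passed with normexp background correction alone (adjusted p = 0.0484). Signal over background limits the dim probes of Socs2 and Socs6, where folds are bounds.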

Other observations

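In the deposited value table, the T2 column matched none of the 9 scanner arrays within 0.001 log2 units: its correlation with them ran from 0.947 to 0.982, and was 0.981 with T2 and 0.982 with M2. The member values there were 4.77 for Socs3, 2.69 for Bcl3, 2.32 for Pim1 and 0.18 for Socs1, against 3.65, 1.504, 1.47 and -0.79 on the T2 scanner array, while Cish was near in both, at 2.07 and 2.30. The columns titled M1 and M2 held the values of each other's scanner array, which moves no group mean.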
